A study of Mus musculus with 35 samples.

Results

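Receptors for extracellular nucleotides and adenosine, and the enzymes that convert one into the other, were measured as mRNA in mouse CD45+ve microglia. The 9 genes described here are the P2Y receptors P2ry12, P2ry13 and P2ry6, the P2X channels P2rx4 and P2rx7, the adenosine receptors Adora3 and Adora2a, and the ectonucleotidases Entpd1 and Nt5e. They were chosen by name and are 9 of the 55401 genes in the table of raw counts. All 9 were among the 17612 genes that passed the filter on low counts. Microglia were isolated from the whole brain by immunopanning, in which dissociated cells bind to a dish coated with antibody against CD45, a surface protein of leukocytes, microglia included. Each of 35 wild-type C57BL/6 mice gave 1 library. The groups were P6 females (5 mice), P6 males (6), P15 females (6), P15 males (6), 8-week females (6) and 8-week males (6). The study removed 1 mouse as an outlier, and P6 female 6, the only one of these mice that is not among its plotted data, was left out here too, so 34 mice were compared, of which 10 were P6 mice, 12 were P15 mice and 12 were 8-week mice.

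Cells release ATP and ADP when they are active or damaged, and both act on P2 receptors of the cell surface. P2Y receptors signal through G proteins, whereas P2X receptors are cation channels that ATP opens. Surface enzymes cut the nucleotides in steps to adenosine, which acts on its own G protein-coupled receptors. In microglia, these genes are known for sensing injury, for steering the movement of processes and for inflammasome activation.

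Between 23316107 and 38965078 fragments were counted per mouse, and levels are given as CPM (counts scaled to a common library total) after TMM scaling, which sets the libraries to a common scale. The floor was set at 3 counts, which equals 0.0745 to 0.137 CPM in the 34 mice and covers counting error only. All 6 microglial markers, among them Tmem119, Sall1, Siglech, Fcrls and Olfml3, were detected in every mouse. Their summed level was 5183 to 9470 CPM at P6, 10390 to 23413 CPM at P15 and 15254 to 23503 CPM at 8 weeks. Markers of other cells also moved with age. The summed level of 9 neural progenitor markers was 661 to 2037 CPM at P6, 124 to 845 CPM at P15 and 89.0 to 206 CPM at 8 weeks, that of 6 neuronal markers was 276 to 926, 89.5 to 693 and 48.4 to 212 CPM, and that of 9 macrophage and monocyte markers was 724 to 1577, 289 to 1031 and 366 to 719 CPM, with none of these 24 genes at 0 in any mouse. Among 8 neutrophil and lymphocyte markers the summed level was 14.9 to 43.7, 13.9 to 75.6 and 35 to 227 CPM, and Ly6g was at 0 in some mice of each age. The sums at P6, P15 and 8 weeks were 295 to 733, 548 to 5570 and 1024 to 3063 CPM for 5 astrocyte markers, 245 to 582, 784 to 3157 and 333 to 1636 CPM for 6 oligodendrocyte markers, and 141 to 894, 192 to 818 and 204 to 596 CPM for 6 endothelial and mural markers, with none of these genes at 0. The part of these cells in the results was not tested beyond the fits described here. In bulk RNA, fewer cells of a type and less RNA per cell cannot be told apart.

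The members lie on 6 chromosomes (GRCm38, GENCODE M21). P2ry12 (chr3:59216272-59262871) and P2ry13 (chr3:59207892-59210882) are neighbours on the minus strand within Med12l, a gene of the plus strand. P2rx7 (chr5:122643911-122691432) and P2rx4 (chr5:122707544-122729738) are also neighbours, on the plus strand. P2ry6 is at chr7:100937630-100974649, Adora3 at chr3:105870858-105908926, Adora2a at chr10:75316877-75334784, Entpd1 at chr19:40612366-40741602 and Nt5e at chr9:88327197-88372092. Adora3 shares 779 of its 3729 exon bases with Tmigd3 on the same strand, so fragments there could belong to either gene. Tmigd3 itself was at most 0.304 CPM in any of the 34 mice, and the counts of Adora3 are uncertain to the extent that fragments on shared exons were assigned to neither gene or to the other.

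The 250 bases before the RefSeq start (GRCm38.p6) are shown for the 4 members that rose by more than 2-fold from P6 to 8 weeks. Entpd1 has 2 listed starts. Capitals mark GAGGAA, the core of the binding motif of PU.1, a transcription factor of the myeloid lineage, read on either strand (TTCCTC on the reverse).
P2ry12, chr3:59262986-59263235, minus strand: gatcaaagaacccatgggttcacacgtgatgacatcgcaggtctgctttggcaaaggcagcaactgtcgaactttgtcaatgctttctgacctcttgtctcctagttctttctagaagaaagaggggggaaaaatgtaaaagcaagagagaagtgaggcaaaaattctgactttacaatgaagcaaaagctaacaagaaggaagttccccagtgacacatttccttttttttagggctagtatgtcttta
P2ry13, chr3:59210883-59211132, minus strand: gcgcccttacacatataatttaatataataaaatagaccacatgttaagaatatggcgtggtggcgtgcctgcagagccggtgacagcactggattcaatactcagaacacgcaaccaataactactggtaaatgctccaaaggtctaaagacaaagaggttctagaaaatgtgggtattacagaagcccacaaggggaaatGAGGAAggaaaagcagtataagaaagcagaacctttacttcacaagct
Adora3, chr3:105904171-105904420, plus strand: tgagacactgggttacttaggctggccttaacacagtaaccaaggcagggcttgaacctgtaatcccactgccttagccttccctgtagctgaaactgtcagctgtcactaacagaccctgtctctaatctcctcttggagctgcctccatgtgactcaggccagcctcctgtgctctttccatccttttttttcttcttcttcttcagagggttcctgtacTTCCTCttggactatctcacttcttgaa
Entpd1, first start, chr19:40612116-40612365, plus strand: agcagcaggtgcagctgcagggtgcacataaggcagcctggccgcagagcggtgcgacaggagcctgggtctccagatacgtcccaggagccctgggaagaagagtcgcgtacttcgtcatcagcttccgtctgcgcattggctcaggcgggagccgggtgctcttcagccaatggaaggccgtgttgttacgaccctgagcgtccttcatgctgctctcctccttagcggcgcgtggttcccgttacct
Entpd1, second start, chr19:40659520-40659769, plus strand: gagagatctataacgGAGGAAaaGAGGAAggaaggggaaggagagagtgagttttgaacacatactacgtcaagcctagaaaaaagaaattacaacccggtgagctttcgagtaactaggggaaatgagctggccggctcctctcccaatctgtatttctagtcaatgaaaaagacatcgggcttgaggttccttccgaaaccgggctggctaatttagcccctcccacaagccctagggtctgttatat

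P2ry13 held the motif 48 bases before its start, Adora3 held it on the reverse strand 28 bases before, and the second start of Entpd1 held it at 235 and 227 bases before. These letters were not in the windows of P2ry12 and of the first start of Entpd1, nor in those of P2rx7, P2rx4 and Nt5e. Of 32536 promoter windows of the same length, 23.4% held GAGGAA. P2ry6 and Adora2a were not matched to a promoter entry.

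From P6 to 8 weeks, 7 of the 9 members rose under TMM scaling and 0 fell, each of the 9 estimates being above 0, and P2ry12, P2ry13, Adora3 and Entpd1 rose by more than 2-fold. Only P2ry13, Adora3 and Entpd1 were still higher when libraries were scaled to the 6 microglial markers instead, and P2ry6, P2rx4, P2rx7, Adora2a and Nt5e were then lower. Under that scaling 4.25% of all genes were higher and 85.0% were lower, and by more than 2-fold 0 members were higher and 2 lower, against 1.59% and 65.1% of all genes. A gene was called at a false discovery rate (FDR, the Benjamini-Hochberg adjusted p) below 0.05, and log2FC is the log2 of the fold change. By FDR under TMM scaling, 37.8% of all genes tested rose and 36.6% fell, and with the 2-fold threshold 11.5% rose and 12.4% fell, with 0 members past it downwards. DESeq2 and limma-voom gave the same counts of 7, 0, 4 and 0 members. The median log2FC of the members was 0.99, against 0.04 over all genes tested. Scaling to the markers moved the all-gene median from 0.04 to -1.61, so values under that scaling are to be read against it. Over the same ages all 9 progenitor markers fell, while of 6 neuronal markers 4 fell and 1 rose. A fit with the mean level of both lists as a covariate gave P2ry12 (log2FC 0.99), P2ry13 (0.84), Adora3 (0.85) and Entpd1 (0.82) as higher, though not by more than 2-fold. In that fit P2ry6 (-0.44), P2rx4 (-0.31) and P2rx7 (-0.19) were below 0 and not called, and Adora2a (2.26, FDR 0.00161) and Nt5e (2.63, FDR 0.00112) were higher and made up the 2 members past 2-fold. In the same fit 25.4% of all genes were higher, 11.1% by more than 2-fold, and 23.5% were lower, 5.02% by more than 2-fold. Age and these markers moved together, so their parts cannot be told apart.

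**Figure D1:**
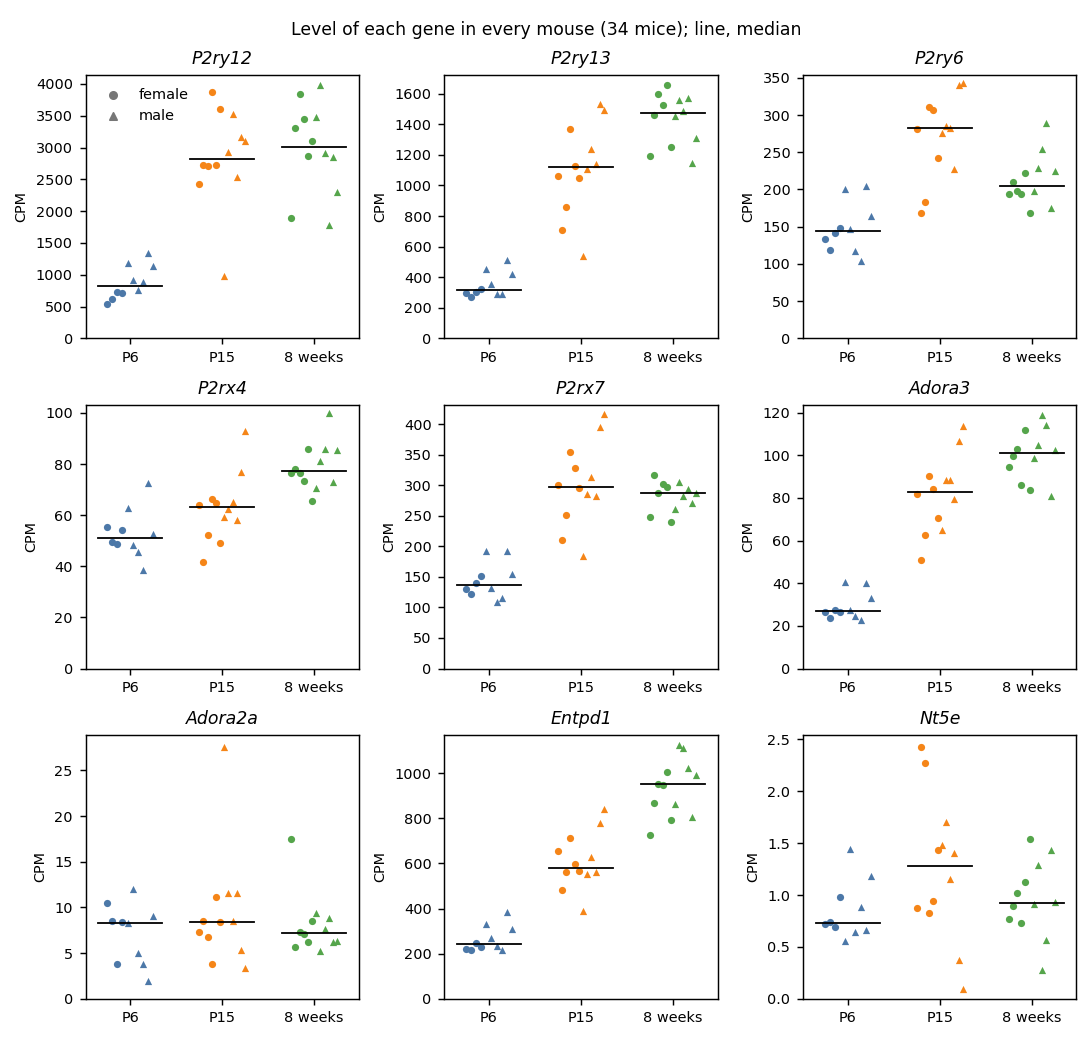
Level of each member in CPM (linear axes from 0) at P6, P15 and 8 weeks, with 1 point per mouse (circles, females; triangles, males) and the median as a line. P2ry13, Adora3 and Entpd1 have no overlap between P6 and either later age, whereas the ages overlap for Adora2a and Nt5e. The share of all genes without such overlap is not given here.

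P2ry12, the ADP receptor through which microglial processes move toward injured cells, was the most abundant member per kb of exon at every age. Its level at P6 was 538 CPM in the lowest mouse, 827 in the median and 1337 in the highest. At P15 it was 987, 2828 and 3870 CPM, and at 8 weeks 1778, 3010 and 3977 CPM. Every 8-week mouse lay above every P6 mouse, and so did 11 of 12 P15 mice, P15 male 1 being the exception. For this and the members below, the share of all genes whose ages separate in this way is not given, so separation is description only. The rise from P6 to 8 weeks was 3.62-fold (log2FC 1.86, SE 0.17, FDR 3.20e-11, edgeR quasi-likelihood test here and below). Under marker scaling it was not called (log2FC 0.24, FDR 0.116).

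P2ry13, a second ADP receptor, had the largest log2FC of the members from P6 to 8 weeks under TMM scaling. Under marker scaling the estimates of Adora2a, Nt5e, P2ry6, P2rx4 and P2rx7 were further from 0 in the downward direction, and with the neural covariate those of Nt5e, Adora2a, P2ry12 and Adora3 were larger. Its level was 271, 313 and 514 CPM at P6 (lowest, median and highest mouse, in that order from here on), 538, 1118 and 1530 CPM at P15, and 1148, 1473 and 1657 CPM at 8 weeks. No P6 mouse overlapped a mouse of either later age. The rise to 8 weeks was 4.22-fold (log2FC 2.08, SE 0.14, FDR 2.78e-14), and log2FC was 0.45 with FDR 3.51e-08 under marker scaling.

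P2ry6, the UDP receptor that drives phagocytosis, took another course and was highest at P15 under TMM scaling, but not under marker scaling. Its level was 103, 144 and 205 CPM at P6, 169, 282 and 342 CPM at P15, and 169, 204 and 289 CPM at 8 weeks. Neighbouring ages overlapped, with 10 of 12 P15 mice above every P6 mouse. It rose to P15 (log2FC 0.89, SE 0.12, FDR 1.57e-07) and then fell by 0.34 on the log2 scale to 8 weeks (SE 0.11, FDR 0.0118) under TMM scaling, whereas under marker scaling it was lower at P15 than at P6 (log2FC -0.59, FDR 1.07e-10) and lower again at 8 weeks than at P15 (log2FC -0.48, FDR 6.14e-08).

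P2rx4, an ATP-gated channel found largely in lysosomes, had the smallest of the 7 changes called from P6 to P15 under TMM scaling. Its level was 38.4, 51.1 and 72.4 CPM at P6, 41.6, 63.3 and 93.0 CPM at P15, and 65.5, 77.3 and 100.1 CPM at 8 weeks. P6 and P15 overlapped widely, and 10 of 12 8-week mice lay above every P6 mouse. It rose from P6 to 8 weeks under TMM scaling (log2FC 0.59, SE 0.10, FDR 4.81e-06) and was lower under marker scaling (log2FC -1.04, FDR 1.20e-16). The rise from P6 to P15 (log2FC 0.24, SE 0.10, FDR 0.0355) was lost under library size scaling (log2FC 0.11, FDR 0.178), without the filter on low counts (FDR 0.0580), and when P6 female 2 (FDR 0.0864), 3 (FDR 0.0909) or 5 (FDR 0.0560) was left out, with a log2FC between 0.21 and 0.27 over the fits with mice left out. It was also not called with the neural covariate (log2FC -0.14, FDR 0.179). Under marker scaling P2rx4 was lower at P15 (log2FC -1.25, FDR 2.39e-18), where the all-gene median was -1.49, so that it lay above the median gene under both scalings.

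P2rx7, the channel that leads to inflammasome activation at high ATP, changed mainly between P6 and P15 under TMM scaling. Its level was 109, 136 and 193 CPM at P6, 184, 298 and 416 CPM at P15, and 240, 288 and 316 CPM at 8 weeks. Every 8-week mouse and 11 of 12 P15 mice lay above every P6 mouse. It rose 1.98-fold from P6 to 8 weeks under TMM scaling (log2FC 0.99, SE 0.12, FDR 6.55e-09) and was lower under marker scaling (log2FC -0.63, FDR 1.78e-13). Between P15 and 8 weeks the log2FC was -0.09 (95% interval -0.30 to 0.12, FDR 0.501) under TMM scaling and -0.21 (FDR 0.000779) under marker scaling. With the neural covariate the later step was the larger, with a log2FC of 0.57 from P6 to P15 and -0.76 (FDR 6.08e-08) from P15 to 8 weeks.

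Adora3, an adenosine receptor coupled to inhibitory G proteins, followed the microglial markers closely. Its level was 22.6, 27.1 and 40.4 CPM at P6, 50.9, 83.0 and 113.8 CPM at P15, and 80.7, 101.0 and 118.9 CPM at 8 weeks. No P6 mouse overlapped a later one. It rose 3.49-fold from P6 to 8 weeks (log2FC 1.80, SE 0.11, FDR 3.99e-15), and under marker scaling log2FC was 0.18 with FDR 0.00224. From P6 to P15 the log2FC was 1.51 (SE 0.11, FDR 5.74e-13) under TMM scaling and 0.01 (FDR 0.864) under marker scaling.

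Adora2a, an adenosine receptor coupled to stimulatory G proteins, is strongly expressed in neurons of the striatum as well as in leukocytes. Its level was 1.99, 8.31 and 12.1 CPM at P6, 3.32, 8.42 and 27.6 CPM at P15, and 5.25, 7.18 and 17.5 CPM at 8 weeks. The 3 ages overlapped, and 1 mouse at each later age stood above all P6 mice. Between P6 and 8 weeks the log2FC was 0.14 (95% interval -0.43 to 0.72, FDR 0.669) under TMM scaling and -1.48 (FDR 0.000282) under marker scaling, where the all-gene median was -1.61. Adora2a was higher with the neural covariate, both at 8 weeks against P6 (2.26, FDR 0.00161) and at P15 against P6 (1.14, FDR 0.00246). Without 8-week female 1 the TMM value was -0.02 (FDR 0.957).

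Entpd1 (CD39), which removes phosphates from extracellular ATP and ADP, rose at each step under TMM scaling, though not from P6 to P15 under marker scaling. Its level was 216, 241 and 386 CPM at P6, 391, 580 and 843 CPM at P15, and 728, 950 and 1124 CPM at 8 weeks. No P6 mouse overlapped a later one, and 9 of 12 8-week mice lay above every P15 mouse. It rose 3.62-fold from P6 to 8 weeks (log2FC 1.86, SE 0.12, FDR 2.51e-15), and under marker scaling log2FC was 0.22 with FDR 0.000171. From P6 to P15 it rose under TMM scaling (log2FC 1.25, SE 0.11, FDR 4.74e-11) and was lower under marker scaling (log2FC -0.26, FDR 2.70e-05).

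Nt5e (CD73), which makes adenosine from AMP, was the least abundant member per kb of exon at every age. Its level was 0.557, 0.730 and 1.45 CPM at P6, 0.0911, 1.28 and 2.43 CPM at P15, and 0.275, 0.925 and 1.54 CPM at 8 weeks, or 2 to 89 counts per mouse. The 3 ages overlapped. Between P6 and 8 weeks the log2FC was 0.19 (95% interval -0.43 to 0.80, FDR 0.596) under TMM scaling and -1.43 (FDR 0.000901) under marker scaling. Nt5e was higher with the neural covariate, both at 8 weeks against P6 (2.63, FDR 0.00112) and at P15 against P6 (1.41, FDR 0.000535). P6 female 6, which was left out, had 3.51 CPM, above all 34 mice, and with it the log2FC was -0.19 (FDR 0.621).

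Under TMM scaling the change from P6 to P15 was larger in size than that from P15 to 8 weeks for 6 of the 7 members that rose, P2rx4 being the exception. Between these ages 7 members rose under TMM scaling and 0 fell, against 30.4% and 31.4% of all genes. P2ry12 (log2FC 1.80), P2ry13 (1.69), Adora3 (1.51) and Entpd1 (1.25) rose by more than 2-fold, against 4.87% of all genes, and 0 members fell by as much, against 4.85%. DESeq2 and limma-voom each gave 3 members past 2-fold. Under marker scaling P2ry13 alone was higher, against 2.24% of all genes, and 6 members were lower, against 87.6%, with an all-gene median of -1.49. By more than 2-fold 0 members were then higher and 1 lower, against 0.721% and 63.4%. With the neural covariate 8 members were higher, against 27.2% of all genes, and 0 were lower, against 25.9%, with 0 members past 2-fold in either direction, against 5.81% upwards and 2.71% downwards. Under TMM scaling the median log2FC of the members was 1.08, against -0.01 over all genes.

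From P15 to 8 weeks the members went different ways. P2ry13 (log2FC 0.38, FDR 0.0128), P2rx4 (0.35, FDR 0.00341), Adora3 (0.29, FDR 0.0184) and Entpd1 (0.61, FDR 1.81e-05) rose, against 24.0% of all genes, and P2ry6 alone fell, against 23.9%. Adora3 was no longer called without P15 male 1 (log2FC 0.23, FDR 0.0665) or with all 35 mice (0.30, FDR 0.0598). With the neural covariate all 4 rises were lost, the log2FC being -0.31 for P2ry13 (FDR 0.0535), -0.17 for P2rx4 (FDR 0.185), -0.25 for Adora3 (FDR 0.0749) and 0.02 for Entpd1 (FDR 0.873). In that fit P2ry6 (-0.92) and P2rx7 (-0.76, FDR 6.08e-08) were lower, against 19.9% of all genes, and Adora2a (1.11) and Nt5e (1.22) were higher, against 20.0%. Under marker scaling the same 4 members were higher, against 11.3% of all genes, and P2ry6 and P2rx7 were lower, against 30.2%, with an all-gene median of -0.15. For P2ry12 the log2FC was 0.06 (95% interval -0.24 to 0.36, FDR 0.758). No member passed the 2-fold threshold by edgeR, DESeq2 or limma-voom, whereas 1.20% of all genes rose and 3.07% fell by as much. The members' median log2FC was 0.06, against 0.02 over all genes.

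**Figure D2:**
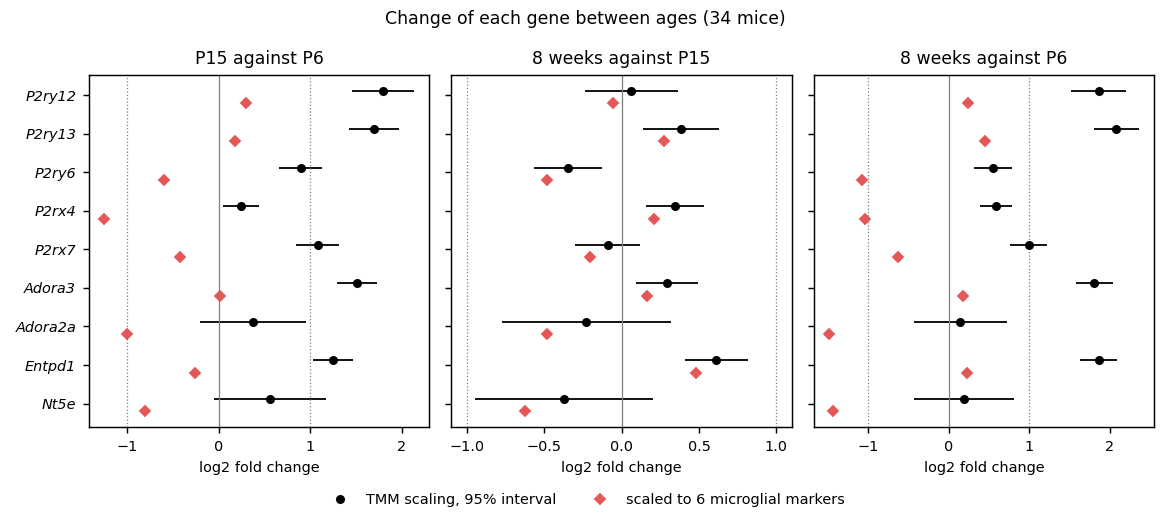
log2 fold change of each member between ages, with the TMM-scaled estimate and its 95% interval in black and the estimate after scaling to the 6 microglial markers as red diamonds (dotted lines, 2-fold). At 8 weeks against P6, P2ry6, P2rx4 and P2rx7 lie right of 0 in black and left of 0 in red, whereas P2ry12, P2ry13, Adora3 and Entpd1 lie right of 0 in both. The diamonds carry no interval, and P2ry12 was not called under marker scaling in this comparison.

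The markers used for this scaling did not move as one. From P6 to 8 weeks all 6 rose under TMM scaling, with a log2FC from 0.49 for Fcrls to 3.10 for Tmem119. Within each mouse, the log2 ratio of a member to the mean of these markers does not depend on library scaling. For Adora3 it was -4.64 ± 0.08 in the 10 mice of P6 (mean ± SD), -4.63 ± 0.08 in the 12 of P15 and -4.46 ± 0.10 in the 12 of 8 weeks. For P2ry6 it was -2.30 ± 0.08 at P6, -2.90 ± 0.18 at P15 and -3.38 ± 0.10 at 8 weeks, with no overlap between P6 and 8 weeks. For P2rx4 it was -3.77 ± 0.16, -5.01 ± 0.15 and -4.79 ± 0.08, so that P15 was the lowest age. The ratio of P2ry12 was 0.25 ± 0.26, 0.47 ± 0.44 and 0.41 ± 0.43, and its SD was above that of P2ry13, P2ry6, P2rx4, P2rx7, Adora3 and Entpd1 at every age.

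**Figure D3:**
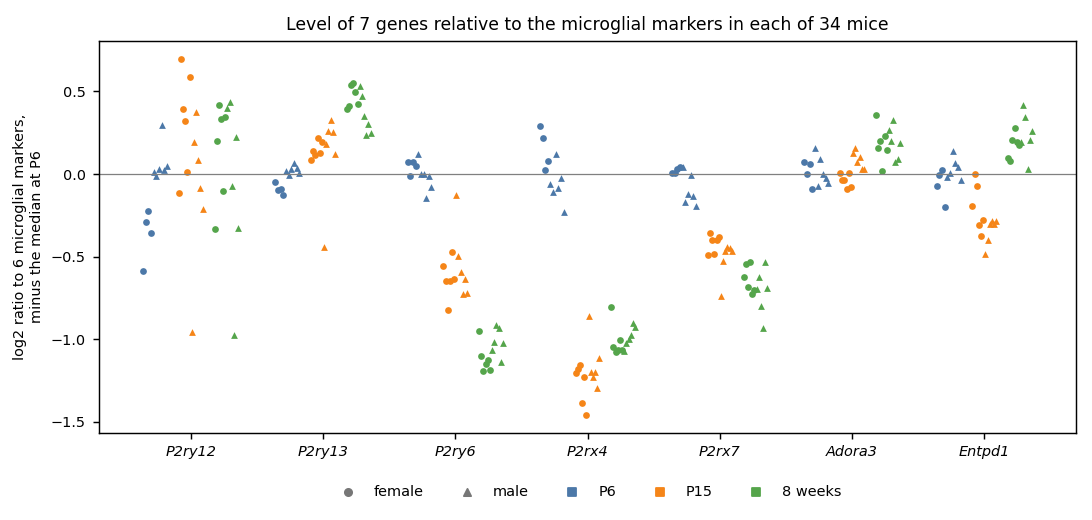
log2 ratio of 7 members to the 6 microglial markers in each mouse, after subtracting the P6 median of that member (circles, females; triangles, males; colours, ages). P2ry12 is spread over more than 1 log2 unit at P15 and at 8 weeks, while Adora3 stays close to 0 at P6 and P15 and P2ry6, P2rx4 and P2rx7 move below 0.

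Mice of the same age and sex also differed among themselves. In deviations from the age and sex group means over 34 mice, which share library depth and purity with every gene of the library, 6 members (P2ry13, P2ry6, P2rx4, P2rx7, Adora3 and Entpd1) had a Pearson r with the microglial markers between 0.90 and 0.95. P2ry12 had r = 0.51, Adora2a -0.47 and Nt5e -0.60. With the neuronal and progenitor markers r was 0.60 for Adora2a and 0.64 for Nt5e, while P2ry12 had -0.50 and P2rx7 had -0.90. P2ry12 and P2ry6 were only loosely related (r = 0.21), and P2ry12 and P2rx4 likewise (r = 0.19), although P2ry6 and P2rx4 were closely related (r = 0.89). These values are descriptions.

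Among 13460 protein-coding genes with a mean of at least 1 CPM, those most like each member were found from the same deviations over 34 mice. They were Tlr4 (r = 0.97), Sppl2a and Cysltr1 for P2ry12, and Arsb (0.96), Elk3 and Ifngr1 for P2ry13. For P2ry6 they were Rgs19 (0.96), Cmtm7 and Unc93b1, for P2rx4 Irf8 (0.95), Ctsa and Grn, and for P2rx7 Acp2 (0.97), Stk10 and Cx3cr1. For Adora3 they included Slc25a45 (0.95) and Il10rb, and for Entpd1 they were Lyn (0.96), Csf3r and Tal1. The genes most like Adora2a were Sod3 (0.93), Id3 and C1qtnf6, and those most like Nt5e were Gabrg1 (0.86), Ttpa and Rbm20. On log2 CPM itself, which adds the differences between ages, the closest were Gpr155 for P2ry12 (0.98), C5ar2 for P2ry13 (0.99), Fcrls for P2ry6 (0.98), Fcgr3 for P2rx4 (0.95), Il6ra for P2rx7 (0.99), Tmem173 for Adora3 (0.99), Il34 for Adora2a (0.91), Csf3r for Entpd1 (0.99) and Pcdh7 for Nt5e (0.83).

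P15 male 1 combined a low P2ry12 with a high Adora2a level. It had 987 CPM of P2ry12, where the other 11 P15 mice had 2431 to 3870 CPM, and 27.6 CPM of Adora2a, where the others had 3.32 to 11.6 CPM. P15 male 1 was also below the others for P2ry13 (538 CPM, others from 707), P2rx7 (184, others from 210) and Entpd1 (391, others from 482). In the same mouse P2ry6 (276 CPM), P2rx4 (59.1), Adora3 (64.9) and Nt5e (1.49) lay within the range of the other P15 mice. 8-week female 1 had 17.5 CPM of Adora2a, where the other 11 mice of its age had 5.25 to 9.36 CPM, and its Entpd1 (728 CPM) was below the others (from 791). Its P2ry12 of 1890 CPM was the second lowest at 8 weeks, after 8-week male 4 with 1778 CPM, whose Adora2a was 8.86 CPM. Deviations of P2ry12 and Adora2a from their group means had r = -0.59 over 34 mice, and -0.37 without P15 male 1 and 8-week female 1.

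Both mice also stood at the edge of their age for several marker lists, though not for all. Their microglial sums, 12920 CPM in P15 male 1 and 15660 CPM in 8-week female 1, ranked 10 of 12 from the highest, so neither was the lowest. P15 male 1 ranked 5 for astrocytes and 7 for endothelial and mural cells. Each had the highest summed level of its age for 4 of 9 lists, among them neural progenitors (845 CPM in P15 male 1 and 206 CPM in 8-week female 1) and 6 markers of striatal neurons, and the lowest for macrophages and monocytes (289 and 366 CPM). P15 male 1 was also highest for neurons (693 CPM) and oligodendrocytes (3157 CPM), and 8-week female 1 for astrocytes (3063 CPM) and for endothelial and mural cells (596 CPM). The striatal sum was 112 CPM in P15 male 1, where the P15 mice ranged from 16.2 CPM upwards with a median of 41.4 CPM, and 102 CPM in 8-week female 1, where they ranged from 20.3 CPM upwards with a median of 42.4 CPM. At P6 the sum was 8.64 to 24.3 CPM, and Gpr6 was the one of the 6 at 0 in some P6 and P15 mice. The part of these cells in the levels of Adora2a and P2ry12 was not tested. Without P15 male 1 the rise of P2ry12 from P6 to P15 was as large (log2FC 1.88, FDR 3.45e-13).

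**Figure D4:**
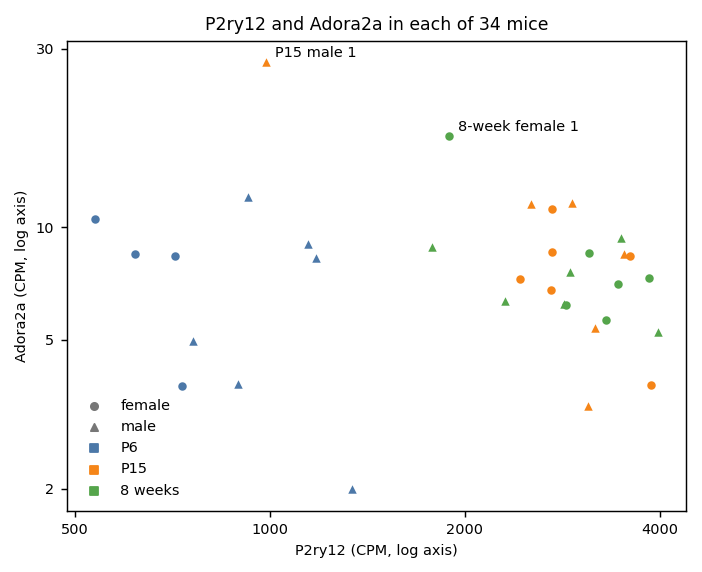
Adora2a against P2ry12 in each of 34 mice, in CPM on log axes (circles, females; triangles, males; colours, ages). P15 male 1 stands apart with the highest Adora2a (27.6 CPM) and a P2ry12 level within the P6 range (987 CPM), and 8-week female 1 has the second highest Adora2a (17.5 CPM).

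No member differed between the sexes at any age by FDR, by edgeR, DESeq2 or limma-voom. The share of all genes that did so was 0.0511% in P6 mice, 0.0681% in P15 mice and 0.114% in 8-week mice. At an unadjusted p under 0.05 there were 2 members at P6 (P2ry12 and Entpd1), against 7.10% of all genes, 2 at P15 (P2rx4 and Adora3), against 18.2%, and 0 at 8 weeks, against 2.94%. P2ry12 at P6 was 538 to 731 CPM in 4 females and 761 to 1337 CPM in 6 males, with no overlap (log2FC 0.68 male against female, SE 0.25, FDR 0.696). The sexes overlapped at P6 for the other 8 members, and the share of all genes without overlap is not given here. P6 female 6, which was left out, had 331 CPM. Its microglial markers summed to 2372 CPM, against 5183 CPM or more in the other P6 mice, so its value does not bear on sex. At P15 the log2FC of P2ry12 was -0.15 (95% interval -0.58 to 0.27) and at 8 weeks -0.09 (-0.52 to 0.33), with overlapping sexes at both ages. The interaction of sex and age for P2ry12 did not pass (F = 3.84, FDR 0.406), as for the other 8 members. Over all genes the interaction called 0%, and at an unadjusted p under 0.05 there were 1 member and 11.8% of all genes.

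Entpd1 at P6 was 216 to 248 CPM in females and 218 to 386 CPM in males, and 4 of 6 males lay above every female (log2FC 0.35, SE 0.17, FDR 0.696). P2rx4 at P15 was 41.6, 58.1 and 66.4 CPM in females and 58.2, 63.7 and 93.0 CPM in males (log2FC 0.30, SE 0.13, FDR 0.259). Adora3 at P15 was 50.9, 76.1 and 90.1 CPM in females and 64.9, 88.5 and 113.8 CPM in males (log2FC 0.30, SE 0.14, FDR 0.269). In both, 2 of 6 males lay above every female and the rest overlapped.

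Levels between genes were compared per kb of exon. At 8 weeks the medians were 1182 CPM per kb for P2ry12, 583 for P2ry13, 170 for Entpd1, 70.8 for P2ry6, 48.2 for P2rx7, 27.1 for Adora3, 11 for P2rx4, 2.34 for Adora2a and 0.108 for Nt5e, and no neighbours in this order overlapped in range. At P6 the order was P2ry12 (325 CPM per kb), P2ry13 (124), P2ry6 (49.9), Entpd1 (43.3), P2rx7 (22.8), P2rx4 (7.27), Adora3 (7.26), Adora2a (2.71) and Nt5e (0.0849). There P2ry6 overlapped Entpd1, and P2rx4 overlapped Adora3. At P15 the ranges of P2ry12 and P2ry13, of Entpd1 and P2ry6, of P2ry6 and P2rx7 and of P2rx4 and Adora2a overlapped.

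Ratios within a mouse, free of library scaling, show how the balance of paired genes differed with age. The log2 ratio of Entpd1 to Nt5e, the enzymes that act one after the other, was, per kb, 8.94 ± 0.55 in P6 mice (mean ± SD), 9.89 ± 1.55 in P15 mice and 10.66 ± 0.78 in 8-week mice. The log2 ratio of Adora3 to Adora2a was 1.91 ± 0.93, 3.01 ± 1.01 and 3.43 ± 0.51. For P2rx4 to P2rx7 it was -1.68 ± 0.14 at P6, -2.49 ± 0.23 at P15 and -2.07 ± 0.14 at 8 weeks. P15 was thus lowest, and the P6 range (-1.85 to -1.46) and the 8-week range (-2.28 to -1.79) met only at their edges. For P2ry12 to P2ry13 it was 1.30 ± 0.21, 1.36 ± 0.32 and 1.01 ± 0.35, differences within the spread of the mice. These ratios are free of scaling but not of RNA from other cells, and Nt5e and Adora2a moved with the neuronal and progenitor markers within groups. With the neural covariate the change from P6 to 8 weeks was smaller for Entpd1 (log2FC 0.82) than for Nt5e (2.63), and smaller for Adora3 (0.85) than for Adora2a (2.26), the opposite order to that of the ratios.

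The neighbours of P2ry12 and P2ry13 on chromosome 3 moved in both directions. Of 6 genes of the locus that were tested, both receptors included, 5 rose and 1 fell from P6 to 8 weeks, where 37.8% of all genes rose and 36.6% fell. Med12l, the host gene on the opposite strand, rose (log2FC 1.18, SE 0.16, FDR 6.51e-08), as did P2ry14, the receptor for UDP-glucose (1.26, SE 0.35, FDR 0.00184), and Gpr171 (1.70, SE 0.41, FDR 0.000465). Igsf10 fell by 2.09 on the log2 scale (SE 0.17, FDR 3.07e-12). Under marker scaling Med12l was lower (log2FC -0.46, FDR 0.0102), as was Igsf10 (-3.75), while P2ry14 (-0.37, FDR 0.363) and Gpr171 (0.12, FDR 0.790) were not called. Counting was by strand, and P2ry12 shares 9 exon bases with Med12l on the other strand.

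Among the other receptors, 5 of 6 further P2Y genes were tested, of which 4 rose and 1 fell from P6 to 8 weeks. The share over all genes, for these and the following lists, was 37.8% higher and 36.6% lower. P2ry10 (log2FC 2.33, SE 0.31, FDR 6.76e-08) and P2ry10b (1.92, SE 0.21, FDR 8.93e-10), receptors for lysophospholipids rather than nucleotides, rose by more than 2-fold. Of 5 further P2X genes, 4 were tested, 0 rose and 2 fell. P2rx2 had 5 to 28 counts in each P6 mouse, 0 to 11 at P15 and 0 to 3 at 8 weeks. Both other adenosine receptors, Adora1 and Adora2b, rose, neither by more than 2-fold, and under library size scaling Adora1 was not called (log2FC 0.51, FDR 0.0748).

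Of 14 further enzymes that act on nucleotides outside the cell or in its vesicles, 12 were tested, 3 rose and 4 fell (2 and 5 under library size scaling), and Enpp3 alone passed 2-fold, with 10 to 54 counts per mouse at P6 and 0 to 5 at 8 weeks. Of 3 genes of nucleotide release, Slc17a9, the vesicular nucleotide transporter, rose (log2FC 1.59, SE 0.15, FDR 3.20e-11) from 4.32 to 10.3 CPM at P6 to 14.4 to 21.8 CPM at 8 weeks. Panx1, a channel through which ATP leaves the cell, fell by 2.02 on the log2 scale (SE 0.14, FDR 4.08e-14) from 24.7 to 48.8 CPM to 7.35 to 13 CPM. In both, the ages did not overlap, and the share of all genes for which this holds is not given here.

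Of 10 genes that carry or convert nucleosides, 9 were tested, 4 rose and 3 fell. Slc29a3, a lysosomal nucleoside transporter, rose (log2FC 1.51, SE 0.12, FDR 2.27e-12), with 148 to 293 CPM at P6 and 448 to 653 CPM at 8 weeks. Slc28a2 (1.96, SE 0.29, FDR 3.92e-07) and Pnp2 (1.54, SE 0.18, FDR 4.30e-09) also rose by more than 2-fold. Ada, which converts adenosine to inosine, fell by 1.41 on the log2 scale (SE 0.15, FDR 3.87e-10), and Slc29a4, a transporter known from neurons, fell by 4.49 (SE 0.36, FDR 9.75e-13). Of 10 signalling partners 4 rose and 3 fell under TMM scaling, whereas under library size scaling 3 rose and 6 fell, and Pik3cg, a kinase downstream of G proteins, rose by more than 2-fold (1.33, SE 0.14, FDR 8.11e-10). These directions are under TMM scaling. Under marker scaling, where the all-gene median was -1.61, P2ry10 alone of these genes was higher (log2FC 0.70, FDR 0.0392), and Adora1 (-0.97), Slc29a3 (-0.11, FDR 0.0281) and Pik3cg (-0.29) were among those that turned to lower. Slc17a9 (-0.02, FDR 0.891), P2ry10b (0.30, FDR 0.143), Slc28a2 (0.35, FDR 0.193) and Pnp2 (-0.11, FDR 0.481) were then not called, while Panx1 (-3.72), Ada (-3.04) and Slc29a4 (-6.20) were lower. With the neural covariate Panx1 (-1.02), Ada (-2.32) and Slc29a4 (-1.10) were lower as well, and the rises of P2ry10, P2ry10b, Slc17a9, Slc29a3, Slc28a2, Pnp2 and Pik3cg were not called, with a log2FC from 0.04 for Pik3cg to 1.49 for P2ry10.

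**Figure D5:**
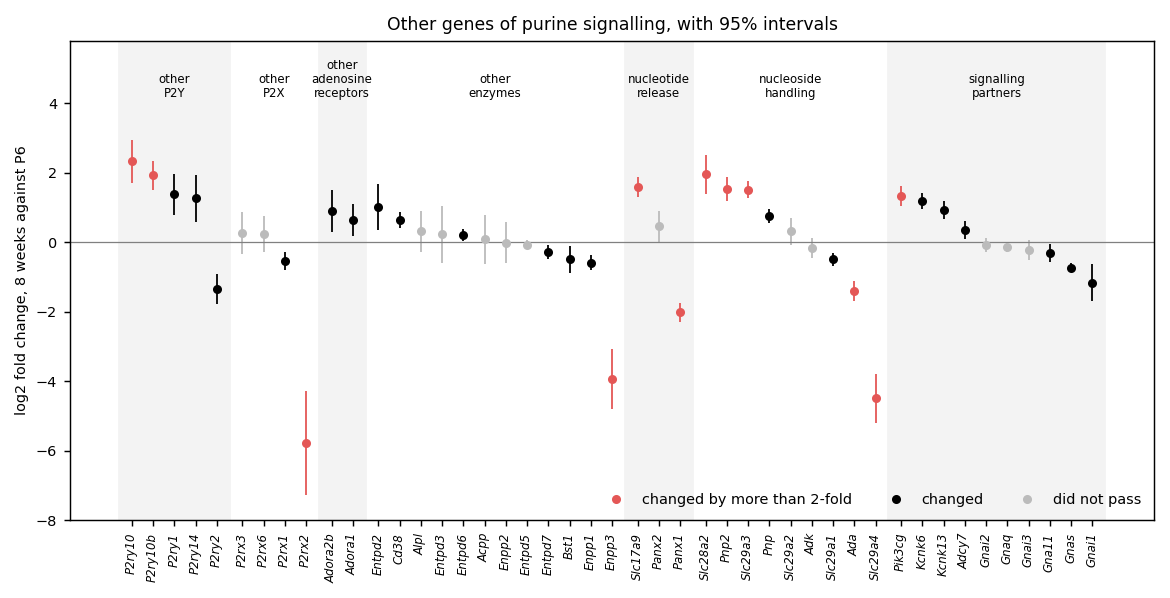
log2 fold change at 8 weeks against P6 for the other genes of purine signalling that were tested under TMM scaling, with 95% intervals, grouped by role (red, past 2-fold; black, changed by FDR; grey, did not pass). P2rx2, with 0 to 3 counts per mouse at 8 weeks, has a fitted value that depends on the prior count, and Panx1, Ada and Slc29a4 lie below 0 while Slc17a9, Slc28a2, Pnp2 and Slc29a3 lie above.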

How the data were processed

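The authors deposited raw counts per gene for 35 mice, made from reads trimmed with fastp 0.20.0 per the submitters' processing notes, aligned to GRCm38/mm10 with STAR and counted by strand with featureCounts. The annotation release is not given in the sources used here. Names, coordinates and exon lengths came from GENCODE M21, where 55141 of 55401 identifiers had a name.

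A gene was tested if 5 or more mice had 0.5 CPM of it or more, and TMM scaled the libraries. A robust edgeR 4.0.16 quasi-likelihood fit in R 4.3.3 had 1 mean for each age and sex group over 34 mice. Change was tested with glmQLFTest and change beyond 2-fold with glmTreat, at FDR below 0.05 over all genes, two-sided. SE is the absolute log2FC over the square root of F, and 95% intervals are its normal limits. DESeq2 1.42.0 and limma 3.58.1 (voom) were alternatives, beside other scalings and filters, a replicate block, a neural marker covariate, all 35 mice and mice left out. The fit was also run on simulated data, and the outcome is not given here. In 85 pairs of mice within groups no libraries were identical. Python 3.11.15 with pandas 2.3.3 and matplotlib 3.10.9 made summaries and plots.

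The members and gene lists were chosen with earlier results of these data known. Named genes were the members, listed purine genes past 2-fold from P6 to 8 weeks, the P2ry12 locus, and the 3 genes most correlated with each member. Adora1, Adora2b, the marker genes and Tmigd3 were named outside that rule, after their values were seen. Some genes within the rule are not reported here. The miRNA libraries were not used.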

Additional observations from a re-analysis of the deposited data

Results flagged for a closer look

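In 54 groups of 4 to 6 mice, 3 single mice lay further from the rest of their group than a Dixon test at the 95% level allows. Chance gives about 1 in 20, so 3 of 54 is close to the share that chance gives. Adora2a was 27.6 CPM in P15 male 1, whose nearest neighbour among 6 P15 males had 11.6 CPM. Adora2a was 17.5 CPM in 8-week female 1, with 8.54 CPM in the nearest of 6 females. Nt5e was 0.980 CPM in P6 female 5, with 0.741 CPM in the nearest of the 4 P6 females, which had only 23 to 38 counts. The P15 male and the 8-week female are also the mice that were highest of their age for 4 of 9 marker lists, those of striatal neurons and neural progenitors in both, and lowest for macrophages and monocytes, and the part of those cells was not tested.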

How the results depend on the processing

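Over the alternatives, 465 of 510 age results for single members kept their direction and side of the threshold, 12 lost the call, 6 gained it and 27 changed sign. Most changes came from 2 settings, so the pooled count does not describe these. Marker scaling left 11 results the same, changed the sign of 12, ended 3 calls and added 1. The neural covariate left 11 the same, changed the sign of 10, ended 1 call and added 5. Scaled to the 6 microglial markers, 3 members were higher and 5 lower at 8 weeks against P6 (4.25% and 85.0% of all genes), with 0 higher and 2 lower by more than 2-fold (1.59% and 65.1%), and 1 was higher and 6 lower at P15 against P6 (2.24% and 87.6%), with 0 higher and 1 lower by more than 2-fold (0.721% and 63.4%). At 8 weeks against P15 4 were higher and 2 lower (11.3% and 30.2%). The log2FC changed sign at 8 weeks against P6 for P2ry6 (-1.08), P2rx4 (-1.04), P2rx7 (-0.63), Adora2a (-1.48) and Nt5e (-1.43), at P15 against P6 for P2ry6 (-0.59), P2rx4 (-1.25), P2rx7 (-0.43), Adora2a (-1.001), Entpd1 (-0.26) and Nt5e (-0.80), and at 8 weeks against P15 for P2ry12 (-0.055). With the neural covariate 2 members passed 2-fold upwards at 8 weeks against P6 (11.1% of all genes) and 0 at P15 against P6 (5.81%), and 2 were higher and 2 lower at 8 weeks against P15 (20.0% and 19.9%). Signs changed for P2ry6 (-0.44), P2rx4 (-0.31) and P2rx7 (-0.19) at 8 weeks against P6, for P2rx4 (-0.14) at P15 against P6, and for P2ry12 (-0.43), P2ry13 (-0.31), P2rx4 (-0.17), Adora3 (-0.25), Adora2a (1.11) and Nt5e (1.22) at 8 weeks against P15. Without a fold threshold, 7 members were higher at 8 weeks and 7 at P15 against P6 (37.8% and 30.4% of all genes), and 4 were higher and 1 lower at 8 weeks against P15 (24.0% and 23.9%).

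The mice left out singly were P6 females 1, 2, 3 and 5, P15 male 1 and 8-week female 1, and the other mice were not left out. With these left out, or the last pair together, the log2FC ranged from -0.046 to 0.231 for Adora2a at 8 weeks against P6 and from -0.049 to 0.116 for P2ry12 at 8 weeks against P15. The lowest Adora2a value came without both of these mice, and with 1 mouse left out it was -0.02 without P6 female 3 and -0.02 without 8-week female 1, and the lowest P2ry12 value came without P15 male 1. Leaving out these mice of P15 and 8 weeks was chosen after the data were seen. Nt5e at 8 weeks against P6 was -0.19 with all 35 mice. Of 351 sex results 15 changed sign, and none was called. With mice left out they ranged from -0.00074 to 0.070 for P2rx4 at P6, from -0.156 to 0.042 for P2ry12 at P15, and at 8 weeks from -0.035 to 0.0085 for P2rx7 and from -0.264 to 0.067 for Adora2a. Under library size scaling P2rx4 at P6 was -0.045, Entpd1 at P15 was -0.0059 and P2rx7 at 8 weeks was -0.023, and with all 35 mice Nt5e at P6 was -0.57 and P2rx7 at 8 weeks was -0.0024. The cause of these changes was not tested.

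The labels do not say whether a shared number pairs mice of different ages. Over 32 same-numbered pairs of 1 sex the median correlation of deviations was 0.08 (range -0.30 to 0.57), and 13 pairs were over 0.1. Over 160 pairs with different numbers it was -0.01 (range -0.50 to 0.61), and 44 were over 0.1. These values do not settle whether the mice were paired. With the replicate block the members called were still 7 at 8 weeks and 7 at P15 against P6, where 6389 and 4985 of 17612 genes were higher, with 4 and 3 past 2-fold, and P2ry12 at 8 weeks against P6 had a log2FC of 1.71. No other result of the members changed its call under the block. Nt5e had 2 to 89 counts per mouse and did not pass a minimum of 10 counts in every mouse. Fits of the other purine genes under other scalings were looked up after the data were seen.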

Other observations

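P6 female 6, which enters only the fits with all 35 mice, had the lowest level of the 35 mice for 7 members. It had 331 CPM of P2ry12, 118 of P2ry13, 53.9 of P2ry6, 27.1 of P2rx4, 75.1 of P2rx7, 8.52 of Adora3 and 101 of Entpd1. Adora2a (12.2 CPM) and Nt5e (3.51 CPM) were above all other P6 mice in that library. Its microglial markers summed to 2372 CPM, its neuronal markers to 1528 CPM and its progenitor markers to 2315 CPM, each outside the range of the other P6 mice.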
